A study of Homo sapiens with 12 samples.

Results

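OCSTAMP, DCSTAMP, NFATC1, ACP5, TNFRSF11A, OSCAR, TREM2 and TYROBP are genes of osteoclast and macrophage fusion and differentiation. These 8 genes were taken by name from the 19504 rows with a gene symbol in the deposited count table, and each of the 8 had a row. The genes were selected on their role and with their measured levels and AC220 changes in the cell line MV4-11 already known. Their values in every comparison that uses MV4-11 are therefore a description without a test, and a test is given only for AC220 against DMSO in OCI-AML3. The filter on low counts was passed by 7 of the 8 and failed by ACP5.

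RNA was measured by 3' mRNA sequencing, which counts tags from transcript ends, in 2 human acute myeloid leukaemia cell lines. The groups were MV4-11 exposed to AC220, MV4-11 exposed to DMSO, OCI-AML3 exposed to AC220 and OCI-AML3 exposed to DMSO, with 3 libraries each. AC220 (quizartinib), a small-molecule inhibitor of the receptor tyrosine kinase FLT3, was given at 5 nM, DMSO was the vehicle, and all cells were taken at 24 h. MV4-11 carries an internal tandem duplication of FLT3, whereas OCI-AML3 has a mutation of NPM1 and lacks the duplication, so that each kind of leukaemia is represented by 1 line. Nothing in the labels tells whether the replicates were grown as separate cultures, so a p-value measures only how these libraries vary, and that variation may be technical.

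Osteoclasts, the bone-resorbing cells, form from precursors of the monocyte lineage that fuse into multinucleated cells. The cytokine RANKL binds its receptor RANK on the precursor, while adaptor proteins with an immunoreceptor tyrosine-based activation motif (ITAM) add a second signal through the kinase SYK. Both signals converge on the transcription factor NFATc1, which drives the genes for fusion and for resorption. The same genes are shared in part with macrophages that fuse into giant cells.

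The adaptor TYROBP and its partner receptor TREM2 had fitted AC220 changes of opposite sign in MV4-11, and the sequences around their start sites are shown for that reason. They are RefSeq sequences of build GRCh38.p14, on the minus strand in both cases, from 250 bases before to 50 bases after the start of the gene. The TYROBP sequence spans chr19:35908246-35908545 and the TREM2 sequence chr6:41163067-41163366. Capitals mark matches on either strand to an AP-1 motif (TGANTCA), the NFAT core (GGAAA), an ETS core (AGGAAG) or a STAT5 motif (TTCNNNGAA).
TYROBP: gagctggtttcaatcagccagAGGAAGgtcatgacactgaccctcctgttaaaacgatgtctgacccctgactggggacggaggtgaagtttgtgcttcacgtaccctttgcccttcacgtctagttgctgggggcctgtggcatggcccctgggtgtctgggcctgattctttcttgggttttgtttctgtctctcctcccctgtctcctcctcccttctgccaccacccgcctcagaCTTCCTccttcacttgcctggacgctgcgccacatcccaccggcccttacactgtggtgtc
TREM2: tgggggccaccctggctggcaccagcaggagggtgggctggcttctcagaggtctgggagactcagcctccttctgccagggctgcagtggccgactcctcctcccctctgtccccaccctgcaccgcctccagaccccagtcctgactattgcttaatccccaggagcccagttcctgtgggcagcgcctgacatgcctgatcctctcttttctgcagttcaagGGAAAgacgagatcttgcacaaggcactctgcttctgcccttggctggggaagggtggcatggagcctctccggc
The TYROBP window held 2 ETS core matches, beginning 229 and 11 bases before the start. The TREM2 window held 1 NFAT core match, 25 bases before the start. No match overlapped another motif. Of 35116 RefSeq windows of this length, 33.6% held the ETS core, 61.2% the NFAT core, 7.71% the AP-1 motif and 7.66% the STAT5 motif. A match is only a run of letters, and no binding was measured.

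Libraries held 11419454 to 13328968 counts in MV4-11 AC220, 15041493 to 16918761 in MV4-11 DMSO, 10877198 to 14458640 in OCI-AML3 AC220 and 13013381 to 13455082 in OCI-AML3 DMSO. Values below are CPM (counts relative to the library total, scaled by TMM) with the SD of 3 libraries, and 3 counts, the floor used for a gene without counts, amount to 0.174 to 0.279 CPM in a library. Markers of the myeloid lineage were present, 7 of 8 in MV4-11 AC220, where ANPEP was at 0, and 8 of 8 in each other group. Their summed level was 296 to 326 CPM in MV4-11 AC220 libraries, against 143 to 160 CPM in MV4-11 DMSO libraries. It was 262 to 296 CPM in OCI-AML3 AC220 libraries, against 233 to 246 CPM in OCI-AML3 DMSO libraries. The MV4-11 sum rose mainly with LYZ, at a mean of 134 CPM with AC220 and 48.9 CPM with DMSO. The means of CD68 (32.83 and 5.998 CPM), CSF3R (40.51 and 14.87 CPM) and ITGAM (7.05 and 2.521 CPM) were also higher with AC220. So was that of CD33 (82.91 and 70.04 CPM), though its libraries overlapped. CD14 (0.031 and 0.328 CPM), ANPEP (0 and 0.086 CPM) and MPO (8.87 and 9.55 CPM) were not higher with AC220. CD14 rested on 1 count with AC220 and 16 counts with DMSO, and ANPEP on 0 and 4 counts. Among 5 genes of bone-forming cells, ALPL and IBSP were at 0 in all libraries and SP7 in all MV4-11 libraries. The summed level of the 5 was 48.1 to 60.1 CPM in MV4-11 AC220 and 21.7 to 25.4 CPM in MV4-11 DMSO. It was 62.8 to 63.7 CPM in OCI-AML3 AC220 and 51.2 to 56.9 CPM in OCI-AML3 DMSO. Most of it was RUNX2, with means of 48.3, 21.7, 62.0 and 52.2 CPM in that order of groups. The summed level of 5 lymphoid markers was 4.93 to 5.77 CPM in MV4-11 AC220 libraries and 1.67 to 2.57 CPM in MV4-11 DMSO libraries, with CD3E at 0 in every group. It was at most 0.359 CPM in OCI-AML3 AC220 and 0.777 CPM in OCI-AML3 DMSO. CD79A averaged 4.06 CPM in MV4-11 AC220 and 0.521 CPM in MV4-11 DMSO. The summed level of 5 epithelial and stromal markers, EPCAM at 0, was 13.6 to 21.1 CPM in MV4-11 AC220 libraries and 11.1 to 11.4 CPM in MV4-11 DMSO libraries. It was 5.59 to 8.77 CPM in OCI-AML3 AC220 libraries and 3.65 to 5.64 CPM in OCI-AML3 DMSO libraries. Most of it was KRT8 in MV4-11, at 15.9 CPM with AC220 and 10.6 CPM with DMSO. In OCI-AML3 it was mostly COL1A2, at 6.89 and 4.35 CPM. The summed level of 4 erythroid markers was at most 0.93 CPM in any library. The part of these markers in the values below was not tested. Fewer cells with a transcript and less transcript per cell cannot be told apart in such bulk samples.

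The fusion genes OCSTAMP and DCSTAMP held nearly all of their counts in MV4-11 DMSO. OCSTAMP encodes a multi-pass membrane protein needed for precursors to fuse into multinucleated osteoclasts. It had 1, 1 and 2 counts in the MV4-11 AC220 libraries, against 1008, 1036 and 969 counts in the MV4-11 DMSO libraries. In OCI-AML3 it had 1, 0 and 0 counts with AC220 and none in any library with DMSO. The 3 MV4-11 DMSO libraries thus stood together and apart from the other 9. The mean level was 0.117 ± 0.057 CPM in MV4-11 AC220 and 62.4 ± 4.0 CPM in MV4-11 DMSO (SD, n = 3 each). From the summed counts of 4 and 3013 the level was 544-fold lower with AC220, with a 95% counting interval of 212 to 1997, and the interval covers counting error only.

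DCSTAMP encodes the dendritic cell-specific transmembrane protein, a relative of the OCSTAMP product that is likewise required for fusion of osteoclasts and of macrophage giant cells. It had no counts in any MV4-11 AC220 library, against 46, 63 and 67 counts in the MV4-11 DMSO libraries. The mean of the MV4-11 DMSO libraries was 3.67 ± 0.88 CPM (SD, n = 3), and the level with AC220 was at least 42.4-fold lower when 3 counts were allowed over the treated group. In OCI-AML3 it had no counts with AC220, against 2, 2 and 2 counts with DMSO. Both fusion genes were thus highest in the same 3 libraries, DCSTAMP with 176 counts in all and OCSTAMP with 3013.

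TNFRSF11A encodes RANK, the receptor for RANKL. It was close to absent in MV4-11, with 1, 0 and 4 counts in the AC220 libraries and 0, 3 and 2 counts in the DMSO libraries. The OCI-AML3 libraries had 10.4, 10.4 and 9.99 CPM with AC220 and 8.31, 6.99 and 9.54 CPM with DMSO. The line in which both fusion genes were highest was therefore the one in which the RANK transcript was at or near the floor. Its fitted log2 change with AC220 in MV4-11, 0.44 (SE 0.94), rests on 5 counts in each group and ran from -1.19 without AC220 replicate 3 to 1.11 without DMSO replicate 2. The ligand gene TNFSF11, which encodes RANKL, had no count in any of the 12 libraries.

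OSCAR encodes the osteoclast-associated receptor, which binds collagen and signals through an ITAM adaptor. It had 54.7, 58.2 and 68.4 CPM in the MV4-11 AC220 libraries, against 75.4, 78.3 and 73.7 CPM in the MV4-11 DMSO libraries. The OCI-AML3 libraries had 24.4, 30.3 and 24.1 CPM with AC220 and 27.7, 31.1 and 23.4 CPM with DMSO. All MV4-11 AC220 libraries lay below all MV4-11 DMSO libraries, while the OCI-AML3 groups overlapped. The log2 change in MV4-11 was -0.33 (SE 0.10), with a range of -0.47 to -0.26 over 21 alternative settings.

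TREM2 encodes a lipid-binding receptor of macrophages, microglia and osteoclast precursors that has no signalling tail of its own and depends on TYROBP. It had 13.3, 20.5 and 15.3 CPM in the MV4-11 AC220 libraries, against 20.6, 19.2 and 21.2 CPM in the MV4-11 DMSO libraries. In OCI-AML3 it had 13.4, 13.1 and 11.4 CPM with AC220, against 12.9, 9.87 and 10.8 CPM with DMSO. The groups overlapped in both lines, in MV4-11 through AC220 replicate 2. The log2 change in MV4-11 was -0.32 (SE 0.14) and became -0.51 without that library and -0.18 without AC220 replicate 1.

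TYROBP encodes DAP12, the ITAM adaptor through which TREM2 and several other myeloid receptors reach SYK. It had 667, 818 and 896 CPM in the MV4-11 AC220 libraries, against 190, 193 and 192 CPM in the MV4-11 DMSO libraries. OCI-AML3 libraries had 18.1, 14.4 and 14.4 CPM with AC220, against 17.0, 18.5 and 16.2 CPM with DMSO. The MV4-11 AC220 libraries were the highest and the most spread, with a mean of 794 ± 117 CPM, against 192 ± 1.3 CPM in MV4-11 DMSO (SD, n = 3 each). The log2 change was 2.05 (SE 0.09), and of the 7 genes that passed the filter TYROBP had the only fitted increase in MV4-11 that kept its sign under all 21 alternative settings. HCST, which encodes the related adaptor DAP10 and is the neighbour of TYROBP in the RefSeq gene order, was looked at because of its position and after values were seen. It had 234 ± 16 CPM in MV4-11 AC220 and 132 ± 0.9 CPM in MV4-11 DMSO (SD, n = 3 each), a log2 change of 0.83 (adjusted p = 3.5e-08 by the quasi-likelihood test of edgeR). The strand setting of the counting is not given in the sources used here, so reads at the border of the 2 genes could be divided.

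NFATC1 encodes the transcription factor NFATc1 itself. It had 28.5, 29.8 and 32.5 CPM in the MV4-11 AC220 libraries, against 37.7, 34.5 and 38.1 CPM in the MV4-11 DMSO libraries. In OCI-AML3 it had 16.8, 13.6 and 13.9 CPM with AC220, against 17.6, 16.3 and 13.7 CPM with DMSO. The MV4-11 groups did not overlap and the OCI-AML3 groups did. The log2 change in MV4-11 was -0.28 (SE 0.11), with a range of -0.38 to -0.24 over 21 alternative settings. ACP5, which encodes tartrate-resistant acid phosphatase, the classical enzyme marker of osteoclasts, had 2 counts in MV4-11 AC220 replicate 3 and none in the other 11 libraries.

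**Figure D1:**
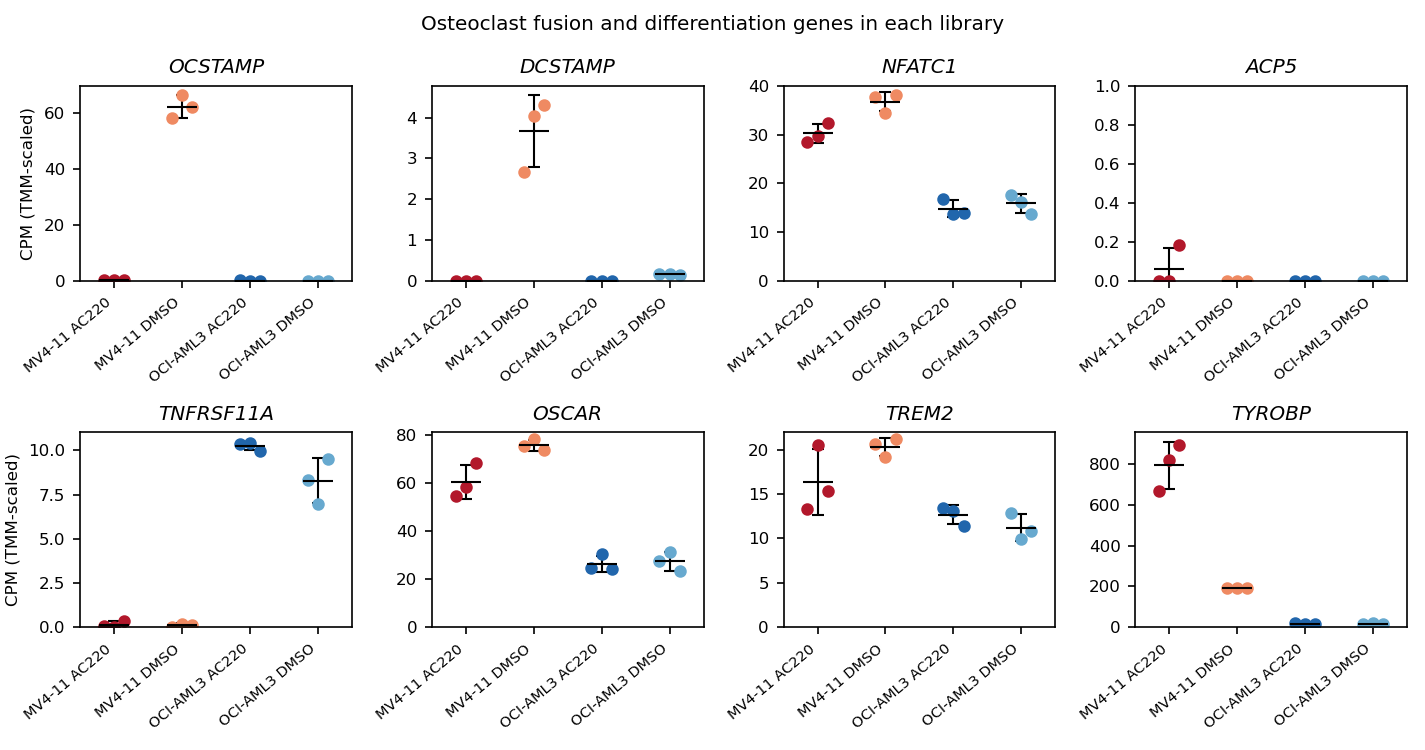
CPM (TMM-scaled) of the 8 genes in each library, by group, on axes that start at 0; points are libraries, and lines and bars are the mean and SD of 3 libraries. OCSTAMP and DCSTAMP stand out in the MV4-11 DMSO libraries, TYROBP in the MV4-11 AC220 libraries at 667 to 896 CPM, and TNFRSF11A in OCI-AML3.

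In MV4-11 the AC220 and DMSO libraries did not overlap for 5 of the 7 genes that passed the filter, namely OCSTAMP, DCSTAMP, OSCAR, NFATC1 and TYROBP. The share of all 12392 tested genes without overlap was 62.4%. Since the genes were chosen with this comparison known, nothing is read from that count. The sizes were unequal among them, from a log2 change of 2.05 for TYROBP through about -0.3 for NFATC1, OSCAR and TREM2 to the near loss of OCSTAMP and DCSTAMP.

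In OCI-AML3, which lacks the FLT3 duplication, none of the 7 genes passed an adjusted p under 0.05 with AC220 by edgeR's quasi-likelihood test, against 3.95% of all tested genes (3.44% higher and 0.508% lower). OCSTAMP and DCSTAMP passed the filter only through their counts in MV4-11 DMSO, so their tests in OCI-AML3 carry little information. With the OCI-AML3 libraries alone 5 of the genes were tested, namely NFATC1, TNFRSF11A, OSCAR, TREM2 and TYROBP, and 0 of the 5 had an adjusted or an unadjusted p under 0.05 by edgeR. In the fit of all libraries DCSTAMP had an unadjusted p under 0.05 (edgeR's adjusted p = 0.13), from 0 counts with AC220 against 6 counts with DMSO, a level at least 1.98-fold lower at 3 counts over the treated group. DESeq2, limma-voom and limma with a mean trend on the deposited log2 values called none of the 7 either, although DESeq2 gave DCSTAMP no adjusted p. Limma without that trend on the same log2 values called DCSTAMP (adjusted p = 0.00068), as its only call among all genes. TNFRSF11A had 10.3 ± 0.23 CPM with AC220 and 8.28 ± 1.3 CPM with DMSO (SD, n = 3 each), and its libraries did not overlap, as for 23.9% of all tested genes. Its log2 change of 0.31 had a 95% interval of -0.13 to 0.74 (adjusted p = 0.44 by edgeR). The interval of the log2 change was -0.35 to 0.14 for NFATC1, -0.28 to 0.17 for OSCAR, -0.13 to 0.48 for TREM2 and -0.39 to 0.10 for TYROBP, all with an adjusted p of at least 0.52 by edgeR. OCSTAMP, with 1 count with AC220 and none with DMSO, was under the floor in both groups.

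The lines differed widely in these genes before any inhibitor, given here as values only. Under DMSO, TYROBP was 11.1-fold higher in MV4-11 than in OCI-AML3, OSCAR 2.77-fold, NFATC1 2.33-fold and TREM2 1.82-fold. DCSTAMP was 24.2-fold higher in MV4-11, with a 95% counting interval of 10.9 to 66.8, and OCSTAMP at least 828-fold higher. TNFRSF11A ran the other way and was 80.4-fold higher in OCI-AML3, with a counting interval of 34.1 to 249. The MV4-11 and OCI-AML3 libraries overlapped for none of the 7 genes under DMSO, which held for 71.9% of all tested genes. Under AC220 the ratio of MV4-11 to OCI-AML3 was 50.8 for TYROBP, 2.27 for OSCAR, 2.06 for NFATC1 and 1.28 for TREM2, and TREM2, OCSTAMP and DCSTAMP overlapped between the lines. The other 4 of the 7 did not overlap, as for 75.6% of all tested genes.

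The genes whose pattern over the 12 libraries lay closest to that of OCSTAMP were ORM1, ORM2, RGS16, PNOC and PPP1R14C. Likeness was the root mean square difference of centred log2 CPM over the 12 libraries, which was 1.42 for ORM2 and 1.67 for PPP1R14C. ORM1, an acute-phase plasma protein gene, averaged 0.403 CPM in MV4-11 AC220, 16.1 CPM in MV4-11 DMSO, 0.0231 CPM in OCI-AML3 AC220 and no count in OCI-AML3 DMSO. RGS16, a regulator of G-protein signalling, averaged 2.48 CPM in MV4-11 AC220 and 137 CPM in MV4-11 DMSO, with 5.82 CPM in OCI-AML3 AC220 and 3.91 CPM in OCI-AML3 DMSO. Closest to DCSTAMP were GAGE10, TREM1, IER3, XIRP1 and RGS1, with differences of 0.40 to 0.55. IER3, an immediate early response gene, averaged 2.29 CPM in MV4-11 AC220 and 43.1 CPM in MV4-11 DMSO, with 3.80 CPM in OCI-AML3 AC220 and 4.25 CPM in OCI-AML3 DMSO. ORM1 and ORM2 are near-identical copies, as are the GAGE genes, so the counting may have divided or lost their reads.

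The rest of the pathway was followed through 8 lists with 100 genes. IKBKG had no row under that symbol in the deposited count table, and 91 of the other 99 were tested. Of the 91, AC220 raised 37 and lowered 22 in MV4-11, or 64.8%, against 58.3% of all tested genes, 31.5% higher and 26.9% lower. The median log2 change was 0.15 over these genes and 0.07 over all tested genes. It was 0.17 over the 90 of them with counts in MV4-11, with a gene at 0 in 1 group set to its bound. In OCI-AML3 AC220 raised 4 and lowered none of the 91, a share of 4.40%, against 3.95% of all tested genes, 3.44% higher and 0.508% lower. The median log2 change there was -0.01 (-0.02 over the 89 genes with counts in both groups), against -0.0024 over all genes. The responses of the 2 lines differed for 49 of the 91 genes in the test of the difference, 30 with a more positive response in MV4-11 and 19 with a more negative one, against 46.7% of all tested genes, 23% more positive and 23.7% more negative. Under DMSO 28 of the 91 were higher in MV4-11 than in OCI-AML3 and 36 lower, against 65.5% of all tested genes, 32.1% higher and 33.4% lower. Adjusted p-values for these genes are from edgeR's quasi-likelihood test over all 12392 genes. The lists were chosen with earlier results of these data known. Their counts and adjusted p-values are therefore a description and not an independent test.

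Among ligands and growth factor receptors, 1 was higher and 1 lower of 3 tested in MV4-11, or 66.7%, against 58.3% of all tested genes. CSF1R and CSF1, the receptor and its ligand that keep the monocyte lineage alive, moved in opposite directions. CSF1R rose to 58.0 ± 8.3 CPM in MV4-11 AC220, against 12.4 ± 0.85 CPM in MV4-11 DMSO (adjusted p = 3e-15, edgeR). The summed myeloid markers were higher in the same libraries, as given above, though CD14, ANPEP and MPO were not. CSF1 fell to 0.509 ± 0.086 CPM, against 5.76 ± 1.5 CPM (adjusted p = 1.2e-08, edgeR). LGR4, an alternative receptor for RANKL, had 8.41 ± 1.6 CPM in MV4-11 AC220 and 8.77 ± 0.82 CPM in MV4-11 DMSO (adjusted p = 0.82, edgeR). TNFRSF11B, the gene of the decoy receptor osteoprotegerin, and IL34, another ligand of the CSF1 receptor, did not pass the filter.

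Of 18 tested genes of RANK signalling to NF-kB and MAP kinases, 5 rose and 3 fell in MV4-11, or 44.4%. The share was 58.3% over all tested genes. CYLD, a deubiquitinase that restrains TRAF6 signalling, rose to 49.9 ± 2.7 CPM with AC220, against 29.1 ± 1.3 CPM with DMSO (adjusted p = 2.1e-08). TRAF3, a brake on noncanonical NF-kB, fell to 22.5 ± 0.92 CPM, against 34.8 ± 1.6 CPM (adjusted p = 1.1e-06), and the docking protein gene GAB2 rose to 152 ± 8.2 CPM, against 111 ± 2.2 CPM (adjusted p = 1.1e-05). TRAF6, the adaptor closest to RANK, had a log2 change of 0.19 (SE 0.17, adjusted p = 0.36).

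Genes of ITAM co-stimulation, the group that surrounds TYROBP, were called in 14 of 17 tested cases in MV4-11, 10 higher and 4 lower, against 58.3% of all tested genes, 31.5% higher and 26.9% lower. Their median log2 change was 0.56, against 0.07 over all tested genes. Since this list too was chosen with earlier results known, nothing is read from that share. SIGLEC15, a sialic acid-binding receptor that pairs with DAP12 on osteoclasts, rose to 3.17 ± 0.85 CPM with AC220, against 0.146 ± 0.041 CPM with DMSO (adjusted p = 5.8e-08). It rested on 2, 3 and 2 counts in the MV4-11 DMSO libraries, against 32, 44 and 33 counts in the MV4-11 AC220 libraries. SYK, the kinase recruited by the ITAM, rose to 113 ± 8.2 CPM, against 74.8 ± 0.76 CPM (adjusted p = 1e-07). TREM1, another receptor that uses DAP12, fell to 0.236 ± 0.20 CPM, against 6.42 ± 0.84 CPM (adjusted p = 3.2e-11). FCER1G, the other main ITAM adaptor and the partner of OSCAR, fell to 15.6 ± 0.67 CPM, against 24.4 ± 0.77 CPM (adjusted p = 2.7e-05), and was named after its value was seen. In MV4-11 the adaptor of TREM2 was thus higher with AC220 and the adaptor of OSCAR lower.

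**Figure D2:**
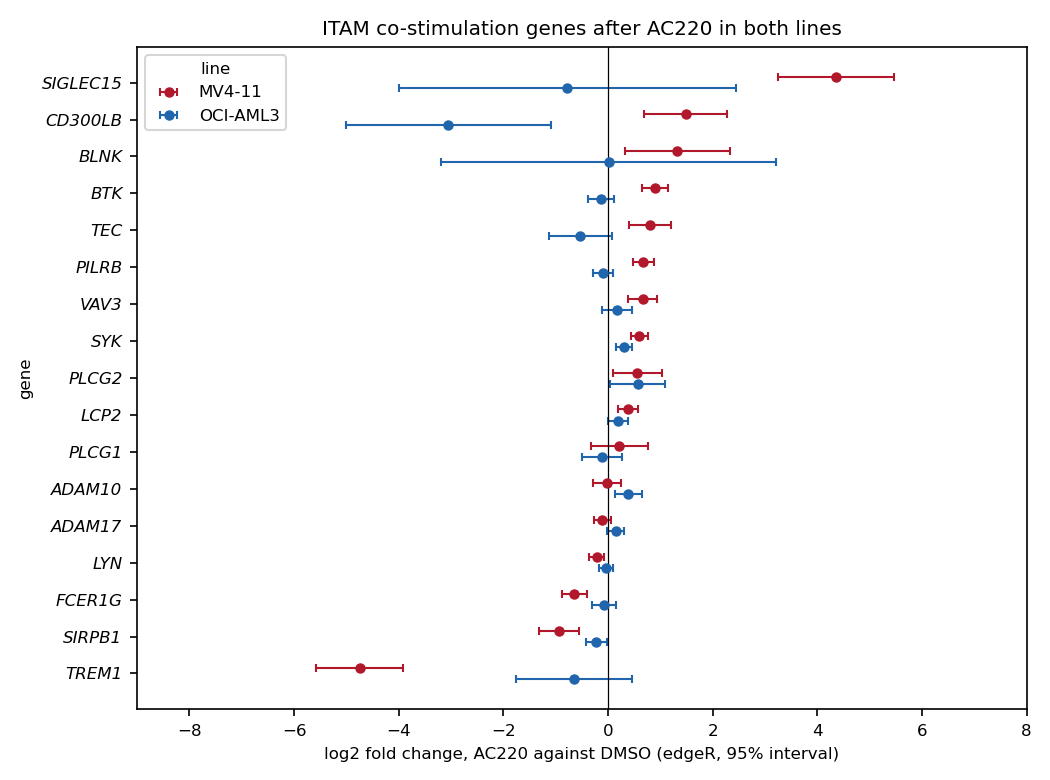
Log2 fold change of AC220 against DMSO (edgeR, 95% interval, n = 3 libraries a group) for the 17 tested genes of ITAM co-stimulation, in MV4-11 (red, above) and OCI-AML3 (blue, below). In MV4-11, SIGLEC15 is the highest at 4.36 and TREM1 the lowest at -4.75; intervals in OCI-AML3 are widest for the genes with few counts.

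In the calcineurin and NFAT list, the step directly before NFATc1, 4 of 10 tested genes rose and 3 fell in MV4-11, or 70%. The share was 58.3% over all tested genes. PPP3CB, a catalytic subunit of calcineurin, fell to 40.9 ± 2.2 CPM with AC220, against 58.2 ± 0.68 CPM with DMSO (adjusted p = 1.6e-06). NFATC2, a relative of NFATC1, rose to 37.3 ± 2.7 CPM, against 22 ± 2.2 CPM (adjusted p = 5.8e-06), and had 1 count in all OCI-AML3 libraries together. NFATC3 fell to 106 ± 7.0 CPM, against 135 ± 3.6 CPM (adjusted p = 5.5e-05).

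Of 10 tested osteoclast transcription factors, 4 rose and 3 fell in MV4-11, or 70%, against 58.3% of all tested genes. The AP-1 subunits split, with FOSL2 at 162 ± 5.6 CPM in MV4-11 AC220, against 85.7 ± 3.2 CPM in MV4-11 DMSO (adjusted p = 1.2e-12). JUN fell to 3.24 ± 0.68 CPM, against 13.9 ± 1.0 CPM (adjusted p = 1.9e-11), and JUND to 363 ± 6.3 CPM, against 597 ± 35 CPM (adjusted p = 8.4e-11). Among 6 tested repressors of osteoclast differentiation, 2 rose and 3 fell, or 83.3%, against the same 58.3% of all tested genes. ID2 rose to 141 ± 6.5 CPM, against 75.3 ± 1.3 CPM (adjusted p = 3.7e-12), and BCL6, a repressor of the NFATc1 targets, to 2.49 ± 0.71 CPM, against 0.767 ± 0.23 CPM (adjusted p = 0.00017). ID1 fell to 0.494 ± 0.33 CPM, against 3.26 ± 1.3 CPM (adjusted p = 2.8e-05).

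Of 11 tested other fusion genes, 5 rose and 3 fell in MV4-11, or 72.7%, against 58.3% of all tested genes. CD36, a scavenger receptor with a part in macrophage fusion, rose to 78.6 ± 7.9 CPM with AC220, against 11.8 ± 2.0 CPM with DMSO (adjusted p = 4e-19). SIRPA, a receptor for CD47, fell to 51.3 ± 2.3 CPM, against 83.2 ± 1.5 CPM (adjusted p = 4e-09). The ATP-gated channel gene P2RX7 fell to 10.5 ± 1.0 CPM, against 21.3 ± 0.89 CPM (adjusted p = 5.7e-06), but not past the threshold by limma on the deposited log2 values (adjusted p = 0.15, and 0.19 without the trend). Its adjusted p was at most 0.00011 under every other setting tried.

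In the resorption machinery, 6 of 16 tested genes rose and 2 fell in MV4-11, or 50%, against 58.3% of all tested genes. The median log2 change was 0.11, or 0.22 once CA2, which had no MV4-11 count, was left out. CKB, the brain-type creatine kinase gene that osteoclasts also use, rose to 22.1 ± 3.7 CPM, against 3.32 ± 0.27 CPM (adjusted p = 1.2e-14). CLCN7, the chloride-proton exchanger of the resorbing membrane, rose to 38.1 ± 3.5 CPM, against 19.9 ± 1.7 CPM (adjusted p = 8.5e-09). MMP14, a membrane-bound metalloproteinase, fell to 60.0 ± 4.8 CPM, against 101 ± 3.4 CPM (adjusted p = 2.8e-08). CALCR and ITGB3 of this list, and ATP6V0D2 of the other fusion genes, did not pass the filter. These genes mark mature osteoclasts, and CALCR had no count in any library.

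**Figure D3:**
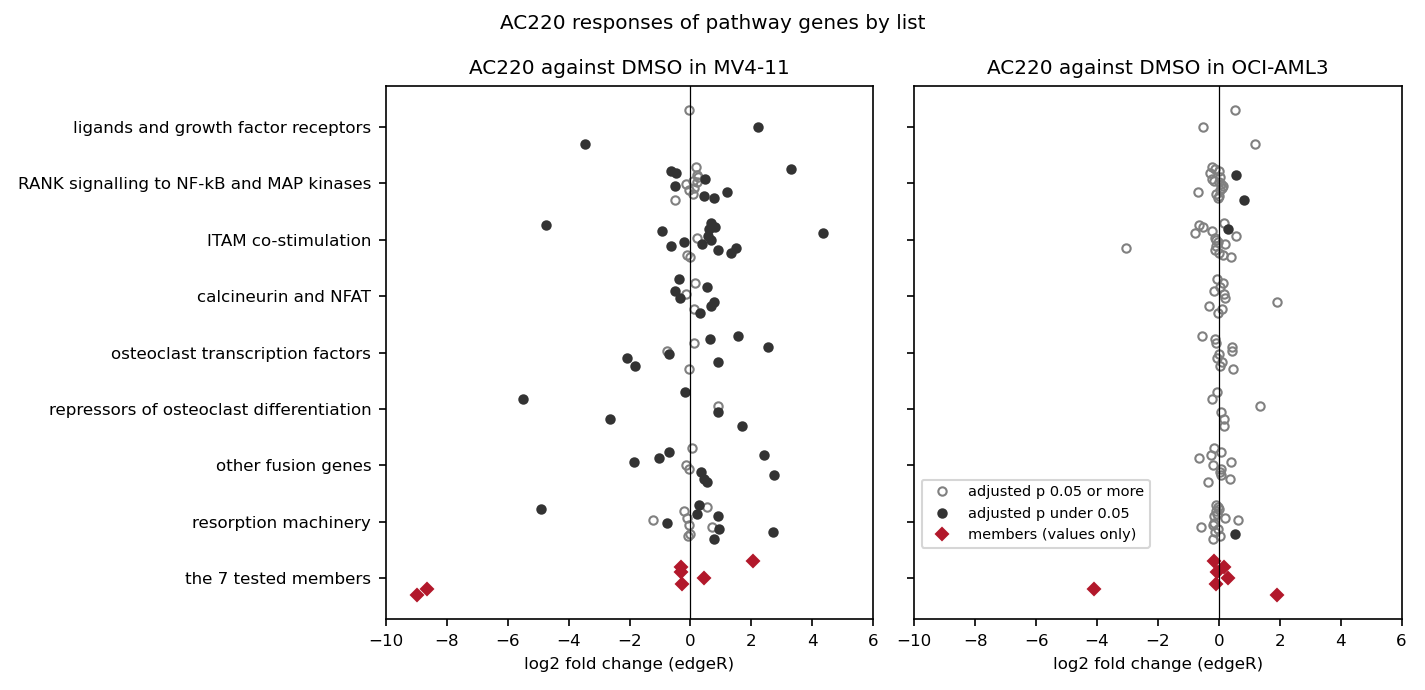
Log2 fold change of AC220 against DMSO for each tested gene of the 8 pathway lists (circles) and for the 7 tested genes described first (diamonds), in MV4-11 (left) and OCI-AML3 (right). Filled circles passed an adjusted p under 0.05 by edgeR, and diamonds are filled whatever their p. Fitted values of genes with no count in a group, such as DCSTAMP, depend on the prior count; 59 list genes are filled in MV4-11 and 4 in OCI-AML3.

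The 4 list genes that rose with AC220 in OCI-AML3 were TAB2, CHUK, SYK and CA2. TAB2, which links TRAF6 to the kinase TAK1, had 25.8 ± 5.6 CPM with AC220 and 17.4 ± 1.5 CPM with DMSO (adjusted p = 0.021, edgeR). CHUK, the gene of the kinase IKK alpha, had 13.0 ± 4.8 CPM with AC220 and 7.45 ± 0.15 CPM with DMSO (adjusted p = 0.041, edgeR). SYK had 93.2 ± 9.7 CPM with AC220 and 75.4 ± 1.3 CPM with DMSO (adjusted p = 0.025, edgeR), and CA2, carbonic anhydrase 2, had 50.1 ± 8.9 CPM with AC220 and 34.7 ± 4.3 CPM with DMSO (adjusted p = 0.023, edgeR). None of the 4 calls stood without OCI-AML3 AC220 replicate 3, DMSO replicate 1 or DMSO replicate 2. The count was 1 without OCI-AML3 AC220 replicate 2, 9 without OCI-AML3 AC220 replicate 1, 7 without OCI-AML3 DMSO replicate 3 and 10 without MV4-11 AC220 replicate 1.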

How the data were processed

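RNA of 12 libraries (2 lines, AC220 or DMSO, 3 each) was sequenced with the QuantSeq 3' kit, per the labels' protocols. The submitters' processing notes name HISAT2 2.0.4, Subread 2.0.0, featureCounts, limma 3.42.2 and hg19. The annotation, the strand setting, the handling of multi-mapping reads and any filter are not given in the sources used here. Raw counts by gene symbol were deposited, and 1 row without a symbol, 0.00343% to 0.00503% of a library, was left out. The authors also deposited normalised log2 values of 11075 genes, used only as an alternative input.

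Genes were filtered with filterByExpr, which left 12392, scaled by TMM and tested with edgeR 4.0.16 (R 4.3.3), quasi-likelihood F test with robust estimation, on all 12 libraries with a mean per group and 8 residual degrees of freedom. P-values were adjusted by Benjamini-Hochberg over all tested genes, with a threshold of 0.05. Counting intervals (95%, exact) and bounds at 3 counts cover counting error only, since reads counted without molecular identifiers can be copies of 1 molecule. The procedure was tested on simulated data.

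The 8 genes and the 8 pathway lists were chosen with earlier results of these data known. All 8 are named; of each list, the 3 genes of smallest adjusted p in MV4-11 and, where any was called, the 1 of smallest adjusted p in OCI-AML3. Genes outside that rule (HCST, FCER1G, TRAF6, CHUK and those without counts) were named after their values were seen or for their place in the pathway. The alternatives tried were DESeq2's size factors, no filter or a stricter one, DESeq2 1.42.0, limma-voom (limma 3.58.1), limma on the deposited log2 values, a replicate block, the compared libraries alone, a threshold of 0.01 and leaving out each library. Limma without a mean trend on the deposited values was added after seeing the data. Replicates were compared pairwise before use; none were identical, and their chi-square divided by its degrees of freedom was 2.77 to 10.7.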

Additional observations from a re-analysis of the deposited data

Results flagged for a closer look

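Of the 26 pathway genes named by the rule, 22 had responses to AC220 that differed between MV4-11 and OCI-AML3 in the test of the difference itself (edgeR, adjusted p under 0.05). Most of the 26 were named for a small adjusted p in MV4-11, a response that the difference contains, so nothing is read from that count. Over all 91 tested pathway genes the count was 49, and over all tested genes the share was 46.7%. No explanation was tested. Differences are log2 changes in MV4-11 minus those in OCI-AML3. The response was more positive in MV4-11 for SIGLEC15 (5.14), CKB (2.84), CSF1R (2.75), CD36 (2.67), BCL6 (1.52), CLCN7 (0.95), ID2 (0.84), FOSL2 (0.81), CYLD (0.80), GAB2 (0.45) and SYK (0.29). It was more negative in MV4-11 for CSF1 (-4.64), TREM1 (-4.09), ID1 (-2.83), JUN (-2.01), SIRPA (-0.76), JUND (-0.74), TRAF3 (-0.62), MMP14 (-0.61), LGR4 (-0.59), NFATC3 (-0.56) and PPP3CB (-0.37).

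For 3 of these the call was lost under several alternatives. The difference for SIGLEC15, with 1 count in OCI-AML3 AC220 and 2 counts in OCI-AML3 DMSO, had an adjusted p of 0.042 and of 0.89 without OCI-AML3 DMSO replicate 1. That for LGR4 had an adjusted p of 0.048 and missed the threshold in 15 alternatives, among them DESeq2 at 0.074 and median-ratio size factors at 0.061, and up to 0.14 without OCI-AML3 DMSO replicate 2. That for SYK had an adjusted p of 0.029 and missed it in 7, among them no filter on low counts at 0.053, and up to 0.11 without OCI-AML3 AC220 replicate 1.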

How the results depend on the processing

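The count of genes called with AC220 in OCI-AML3 depended most on the processing. It was 489, and became 836 without a filter on low counts, 813 by DESeq2, 118 by limma on the deposited log2 values, 1 by the same without a mean trend and 47 at a threshold of 0.01. It was 13, 15 and 998 without OCI-AML3 DMSO replicates 1, 2 and 3, 944, 116 and 22 without OCI-AML3 AC220 replicates 1, 2 and 3, and 1136 without MV4-11 AC220 replicate 1. The 489 were 426 higher and 63 lower, a split that became 363 and 126 with median-ratio size factors. For the pathway genes the count of 4 in OCI-AML3 became 7 without a filter, 1 by limma on the deposited log2 values, 0 by the same without a trend and 0 at a threshold of 0.01, and lay between 0 and 10 when a library was left out. The 1 call by limma was for a gene lower with AC220, whereas the 4 were all higher, so none of the 4 was called there. Of the 7 osteoclast genes, 0 were called in OCI-AML3, and 1 by limma without a trend on the deposited values. The cause was not tested. The total counts, over both directions, in MV4-11, of the difference of responses and between the lines stayed within 1.5 times under every alternative run. By direction, the pathway genes with a more positive response in MV4-11, 30 of them, became 19 at a threshold of 0.01. Of 18 pairs of libraries with the same replicate number, 1 had a correlation of deviations over 0.1 (range -0.18 to 0.18). Between AC220 and DMSO the correlations were 0.049 to 0.18 in OCI-AML3 and -0.12 to -0.080 in MV4-11. Pairs with different numbers were not compared, so whether replicate numbers pair the samples was not settled. With the replicate number as a block the pathway count in OCI-AML3 was 5 and in MV4-11 59. Depth limits ACP5 in every group, OCSTAMP and DCSTAMP outside MV4-11 DMSO and TNFRSF11A in MV4-11, which lay at or under the floor of 3 counts or near it in each library.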
